A study of Mus musculus with 4 samples.

Results

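The cells described here are the osteoclast-like cells of the arthritic mouse ankle, 528 of 14451 cell barcodes kept from 4 libraries of sorted synovial cells. They were chosen by measured RNA values. A barcode counted as osteoclast-like when Acp5 and Ctsk together made up at least 2% of its gene UMIs (unique molecular identifiers, each standing for 1 captured RNA molecule) and Atp6v0d2, Dcstamp, Ocstamp and Oscar together gave at least 3 UMIs. Kept barcodes had at least 300 genes and at most 10% of gene UMIs from mitochondrial genes. The 3 libraries of K/BxN serum-transfer arthritis (STIA, an arthritis started by injecting serum with joint-directed autoantibodies) held 168 such cells among 5941 kept barcodes at peak (day 7), 340 of 2828 at plateau (day 14), and 20 of 4611 at resolution (day 56). The baseline library, taken on day 0 from mice with no treatment, held 0 of 1071. All mice were CD45.1 B6 --> CD45.2 B6 bone marrow chimeras (BMC), whose ankle had been kept out of the radiation field, so host blood-forming cells may persist in the joint. Each stage had 1 library, of a number of mice not given in the sources used here. Clo-lip, a term left unexplained, stands in the title of every arthritis library but not of the baseline one, and its effect cannot be told apart from that of arthritis. Live cells had been sorted as positive for CD45 and CD11b and negative for CD64, CD177, Ly6C, Ly6G, MHC class II and SiglecF. RNA was read together with 92 DNA-tagged antibodies (CITE-seq).

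Osteoclasts are the bone-resorbing cells of the monocyte lineage. They form when precursors exposed to CSF1 and RANK ligand switch on the transcription factor NFATc1 and fuse into large cells with many nuclei. On bone they build a ring of actin, pump protons and chloride into the sealed space beneath them to dissolve mineral, and release cathepsin K and other proteases that cut the exposed collagen. In inflamed joints such cells form where synovium meets bone and erode it.

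Surface proteins were read through 15-base tags on the antibodies, and the tags of the 6 antibodies on which the surface results turn are given 5′ to 3′ as in the deposited antibody list. CD61 is integrin beta 3, CD71 the transferrin receptor, CD115 the CSF1 receptor, CD68 a lysosomal glycoprotein, CD45.1 marks donor blood cells and CD45.2 those of the host.
CD61: ttctttacccgcctg
CD71: accgaccagtagaca
CD115: ttccgttgttgtgag
CD68: ctttctttcacggga
CD45.1: cctatggacttggac
CD45.2: caccgtcattcaacc

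Osteoclast-like cells appeared in the arthritis libraries and were most frequent at plateau. At baseline 0 of 1071 barcodes qualified, which allows a share of up to 0.280% by a limit of 3 counts. By the exact interval used for the other stages it allows up to 0.344%. Both limits exceed the lower bound given next for resolution, so baseline and resolution are not set apart. The share was 2.83% at peak (95% exact Clopper-Pearson interval from 2.42 up to 3.28), 12% at plateau (10.8 up to 13.3) and 0.434% at resolution (0.265 up to 0.669). They held 9.03% of the gene UMIs of kept barcodes at peak, 34.6% at plateau and 1.21% at resolution. Intervals and limits cover counting error only, not differences between mice or libraries, and with 1 library a stage no test between stages was possible. Plateau had the highest share and resolution the lowest of the arthritis libraries under each of the 8 other settings tried. More osteoclast-like cells and fewer other cells in the gate cannot be told apart.

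**Figure D1:**
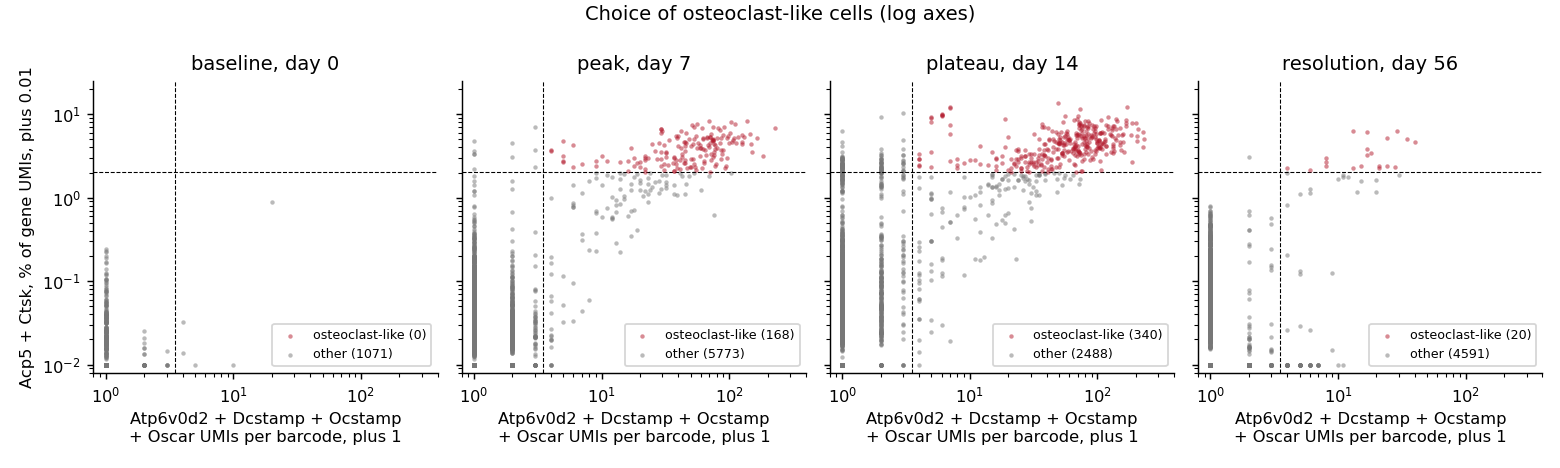
Choice of the osteoclast-like cells. Each point is 1 kept barcode, with the UMIs of Atp6v0d2, Dcstamp, Ocstamp and Oscar plus 1 on the horizontal log axis and the percentage of gene UMIs from Acp5 and Ctsk plus 0.01 on the vertical log axis. Dashed lines mark both limits: 168 cells at peak, 340 at plateau, 20 at resolution and 0 at baseline lie in the upper right corner, and intermediate barcodes connect them to the rest.

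Most of the cells lay well inside both limits. The Acp5 and Ctsk share ran from 2.02% over a median of 3.84% to 8.39% in the peak library, from 2.00% over 4.29% to 13.8% in the plateau library, and from 2.13% over 2.81% to 6.25% in the resolution library. The 4 fusion and receptor genes gave a median of 52 UMIs at peak, 65 at plateau and 16 at resolution. Just inside the limit, with shares of 2% to 2.5%, lay 24 cells at peak, 37 at plateau and 9 at resolution. Just outside it, with shares of 1.5% to 2% and the UMI criterion met, lay 24, 37 and 8 barcodes. There was thus no gap at the limit. A further group of 103 barcodes at plateau met the share criterion with fewer than 3 UMIs of the other genes. Their median depth was 684 gene UMIs, and 56 of them had 0 UMIs of those genes. They had 5244 CPM of Lyz2 and 405 CPM of C1qa, against 192 and 10.2 CPM in the osteoclast-like cells. Mmp9 and Ckb stood at 4231 and 2698 CPM in them, against 7263 and 4322 CPM in the osteoclast-like cells. Barcodes at plateau that met neither criterion had 47.6 and 150 CPM of these genes. The group was not counted as osteoclast-like, and the part of its low depth in missing the UMI criterion was not tested.

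The cells were rich in RNA. Their median depth was 29873 gene UMIs at peak, 29145.5 at plateau and 15893 at resolution, against 8160, 6308 and 4894 in the other barcodes. A median of 4715, 4663.5 and 3548 genes was detected in them, against 2265, 2075.5 and 1835. Mitochondrial genes took a median of 3.27%, 4.33% and 3.12% of their gene UMIs, against 1.51%, 1.96% and 1.34%. Antibody UMIs did not follow to the same degree, with medians of 835.5, 974 and 440 against 804, 605.5 and 365. Kept barcodes shared between pairs of libraries numbered from 0 to 9, and 0 of them were osteoclast-like in both. Doublets were not removed. Leaving out the barcodes with the highest Scrublet doublet scores, between 6.26% and 8.68% of a library with ties at the limit of 6%, took out 8 of the 168 cells at peak, 22 of the 340 at plateau and 0 of the 20 at resolution.

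The label was set beside further osteoclast markers that the rule did not use. Of 22 further osteoclast genes, 20 reached a mean of 20 CPM over both cell groups at peak and plateau (CPM, the UMIs of a gene per 1000000 gene UMIs, both summed over a group of barcodes). At least 2-fold higher in osteoclast-like cells were 19 at peak, 19 at plateau and 16 at resolution, and 0 were 2-fold lower. Over all 5253 genes compared, 17.5% were at least 2-fold higher and 18% at least 2-fold lower at peak, 11.9% and 17.4% at plateau, and 13.9% and 18.5% at resolution. The median log2 ratio of the list was 3.07 at peak, 2.49 at plateau and 2.72 at resolution, against 0.02, -0.10 and 0.03 for all genes compared. With edgeR TMM totals in place of total UMIs all ratios shifted by -0.26 at peak, 0.02 at plateau and -0.13 at resolution, so that 720 genes were higher and 1167 lower at peak, against 918 and 945 with total UMIs. The rule chose these cells by genes of the same programme, and the list was drawn up with earlier results of these data known. The list is therefore no independent check of the label. All ratios between osteoclast-like cells and other barcodes are descriptions with no test. Calcr, the calcitonin receptor of mature osteoclasts, and Siglec15, a receptor that promotes osteoclast maturation, did not reach the minimum. Siglec15 had 9.80, 20.1 and 21.3 CPM in osteoclast-like cells at peak, plateau and resolution, against 0.169, 0.155 and 0.0747 CPM in the others. Calcr had 0.566, 1.07 and 9.14 CPM, against 0 counts in the others of all 3 libraries. Its 9.14 CPM at resolution rest on 3 UMIs, so no rise is read from them.

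**Figure D2:**
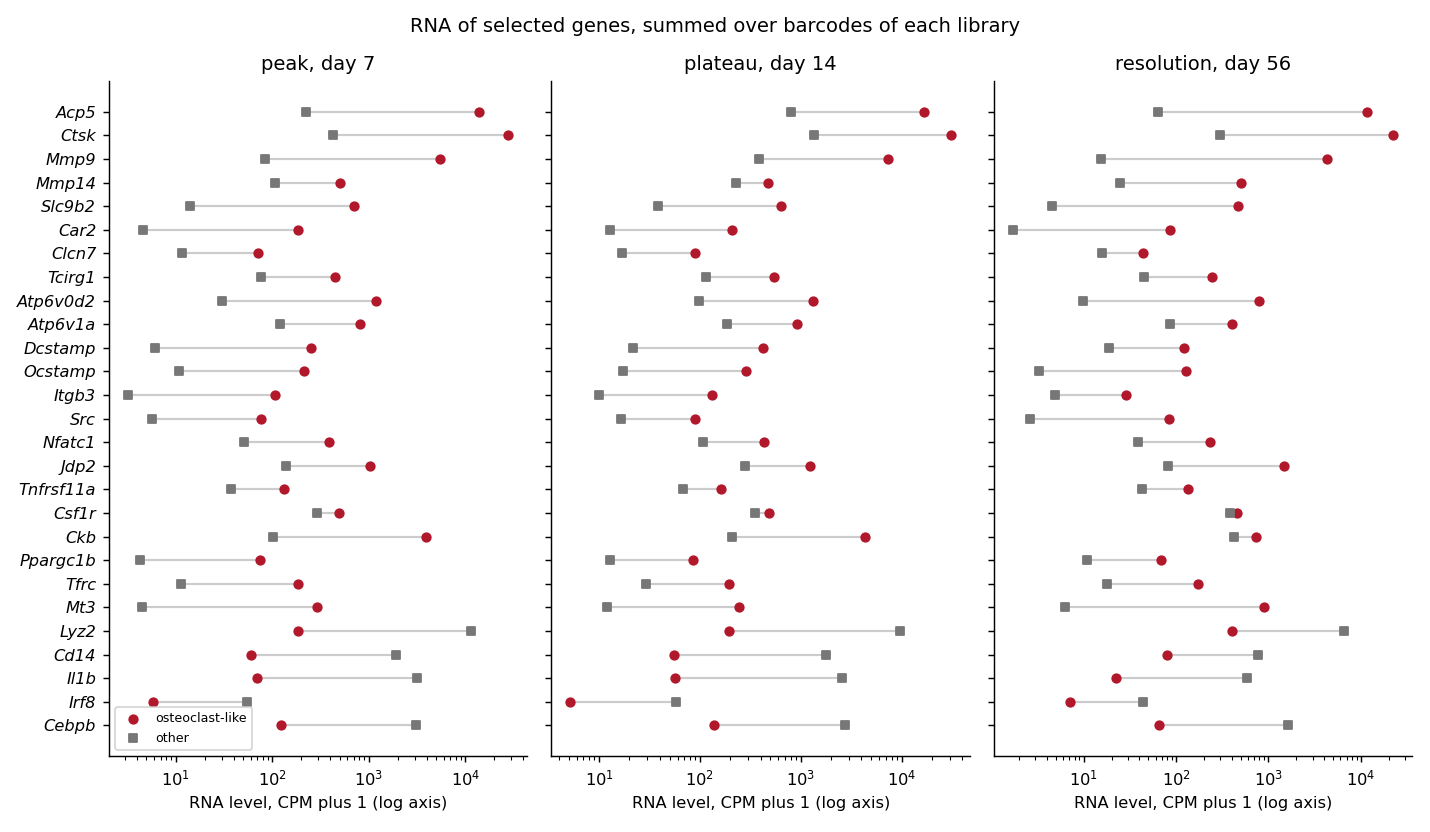
RNA levels of genes of the osteoclast programme and of macrophage and monocyte genes in the 3 libraries that hold osteoclast-like cells. The horizontal log axis gives CPM plus 1, summed over osteoclast-like cells (red circles) and over all other kept barcodes (grey squares). Osteoclast genes such as Mmp9, at 5462, 7263 and 4311 CPM, lie to the right in osteoclast-like cells, and Lyz2, Cd14, Il1b, Irf8 and Cebpb lie to the left.

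Resorption enzymes came first among these genes. Acp5, the tartrate-resistant acid phosphatase, and Ctsk, cathepsin K, chose the cells and are given as a description: Acp5 had 13703, 16745 and 11762 CPM in osteoclast-like cells, against 225, 798 and 62.6 CPM in the others. Ctsk had 27954, 30862 and 22543 CPM, against 426, 1351 and 295 CPM. Ctsk is also a gene of fibroblasts: barcodes with at least 20 UMIs of 10 fibroblast genes, among them 0 osteoclast-like cells, had 675, 1428 and 849 CPM of it. Mmp9, the gelatinase of osteoclasts, was not used by the rule. Per 10000 gene UMIs of a cell, Mmp9 ran from 0 over a median of 50 to 169 at peak, from 0 over 70.3 to 282 at plateau, and from 0 over 21.2 to 166 at resolution. Summed, it had 5462, 7263 and 4311 CPM in osteoclast-like cells, against 83.1, 382 and 14.5 CPM in the others, a 65.7-fold difference at peak (95% Poisson interval 63.7 to 67.9), 19.0-fold at plateau (18.5 to 19.4) and 298-fold at resolution (266 to 334). The others include barcodes that met only the share or only the UMI criterion. Barcodes that met neither had 18.1, 47.6 and 10.6 CPM of Mmp9, so the folds depend on which barcodes are set against the cells.

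Osteoclast genes were also read in barcodes that should lack them. Whether their UMIs there came from free RNA, mixed droplets or the cells' own expression was not tested. Such barcodes carried at least 5 UMIs of genes of B cells, T cells, natural killer cells, basophils or mast cells, 0 UMIs of Csf1r and few of fibroblast genes. At least 1 Ctsk UMI was found in 100% of osteoclast-like cells in each library, against 42.1% of 76 such barcodes at peak (31 to 54), 50% of 8 at plateau (15.7 to 84.3) and 2.5% of 40 at resolution (0.063 to 13.2). Their median depth was 3595.5, 2315 and 2263 gene UMIs. At least 1 Mmp9 UMI was found in 98.8%, 99.4% and 85% of osteoclast-like cells. In those barcodes it was 7.89% at peak (2.95 to 16.4), 0 of 8 at plateau (up to 36.9%) and 0 of 40 at resolution (up to 8.81%). With 8 shallow barcodes at plateau, free Mmp9 RNA is not excluded there. At least 1 Acp5 UMI was found in 35.5%, 62.5% and 12.5% of those barcodes. At baseline, where no osteoclast-like cell was found, it was 26.3% of 19, and the source of these UMIs was not tested. Low Acp5 levels in other barcodes, and low Ctsk levels at peak and plateau, can therefore not be read as expression. At resolution Ctsk had 4.94 CPM in the barcodes that should lack it, against 849 CPM in the fibroblast-rich barcodes.

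Other proteases split. Of 13 compared, 3, 2 and 2 were at least 2-fold higher at peak, plateau and resolution and 4, 5 and 4 at least 2-fold lower, with median log2 ratios of 0.25, 0.14 and -0.39; with TMM totals the peak median was -0.0026. Mmp14, a membrane-bound collagenase, had 505, 472 and 503 CPM in osteoclast-like cells, against 105, 227 and 23.8 CPM in the others. It was higher in all 3 libraries. Ctss, cathepsin S of antigen-presenting cells, had 209.7, 247 and 189 CPM, against 2721, 2638 and 1912 CPM, and Ctsc, which activates granule proteases, had 33.6, 32.9 and 45.7 CPM, against 744, 735 and 264 CPM. Both were lower in all 3. Ctsb, a lysosomal cathepsin of many cells, stayed within 2-fold at 762, 770.2 and 378 CPM, against 774, 1066 and 664 CPM.

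Genes of the proton pump, the V-ATPase that acidifies the resorption space, were higher together. Of 16 compared, with Atp6v0d2 left out as a rule gene, 13, 13 and 12 were at least 2-fold higher at peak, plateau and resolution and 0 were 2-fold lower. Their median log2 ratio was 2.28, 2.01 and 2.00. Tcirg1, the osteoclast form of the a subunit, had 447, 542 and 247 CPM in osteoclast-like cells, against 75, 114 and 43.4 CPM. Atp6v1a, the catalytic subunit, had 808, 923 and 405 CPM, against 120.1, 184 and 84.0 CPM. These ratios lay between 4.77-fold and 6.73-fold over both genes and all 3 libraries. Paired subunit forms differed: Atp6v0d2 had 1190.2, 1332 and 795 CPM, against 29.6, 96.1 and 8.70 CPM, whereas its widely expressed counterpart Atp6v0d1 had 115, 137 and 101 CPM, against 123, 132 and 116 CPM. Atp6v0a2, another a subunit, was likewise within 2-fold, with 21.7, 23.3 and 30.5 CPM against 24.5, 25.2 and 25.7 CPM. Atp6v0a1, below the minimum level, had 3.58, 3.12 and 9.14 CPM, against 27.4, 25.8 and 38.5 CPM.

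Genes that supply the pump with protons and chloride were higher as well, 6, 7 and 5 of 8 at peak, plateau and resolution. Car2, the carbonic anhydrase that makes protons, had 186, 207 and 85.3 CPM in osteoclast-like cells, against 3.61, 11.8 and 0.710 CPM. Slc9b2, a sodium-proton exchanger of osteoclasts, had 701, 640.0 and 466 CPM, against 13.2, 37.7 and 3.55 CPM. Both were among the 15 genes with the highest mean ratios of those that the naming rule allowed. Clcn7, the chloride-proton exchanger of the resorption membrane, had 69.6, 89.3 and 42.6 CPM, against 10.7, 15.9 and 14.9 CPM. Slc4a2, the anion exchanger that removes bicarbonate, had 112, 143 and 76.2 CPM, against 16.4, 30.3 and 21.8 CPM. Rab7, a late endosome GTPase, differed little, with 253, 269.6 and 232 CPM against 228, 248 and 215 CPM.

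Fusion genes of the rule were Dcstamp and Ocstamp, membrane proteins needed for osteoclast fusion. Dcstamp had 252, 422 and 122 CPM in osteoclast-like cells, against 5.13, 20.7 and 17.8 CPM, and Ocstamp had 213, 287 and 128 CPM, against 9.96, 16.1 and 2.28 CPM. Oscar, an immune receptor that binds collagen, had 169, 232 and 9.14 CPM, against 0.899, 5.22 and 0 CPM. Its 9.14 CPM at resolution rest on 3 UMIs. Over all genes compared, 17.5%, 11.9% and 13.9% were at least 2-fold higher and 18%, 17.4% and 18.5% lower. Of 14 further genes linked to cell fusion, 4, 4 and 3 were at least 2-fold higher and 4, 7 and 5 at least 2-fold lower. The median log2 ratios of this list were -0.12, -0.70 and -0.72, so it leaned lower at plateau and resolution. The higher ones included Cd63, a tetraspanin of lysosomes, with 1962, 2083 and 1362 CPM against 318, 904 and 360.3 CPM, and Myo10, an unconventional myosin of cell protrusions, with 101, 127 and 85.3 CPM against 7.83, 25.6 and 8.52 CPM. The tetraspanin Cd81 was lower, with 2.26, 1.76 and 6.09 CPM against 60.9, 141 and 499.7 CPM.

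Signalling genes of the RANK and CSF1 receptors were partly higher, 7, 7 and 6 of 16 at peak, plateau and resolution, with 2 lower in each library. Nfatc1, the master transcription factor of osteoclasts, had 386, 428 and 235 CPM in osteoclast-like cells, against 50.5, 107 and 38.0 CPM. Tnfrsf11a, which encodes RANK itself, had 133, 161 and 134 CPM, against 36.6, 66.6 and 41.3 CPM. Jdp2, an AP-1 family factor of osteoclast differentiation, had 1018, 1235 and 1487 CPM, against 139.7, 281 and 80.6 CPM, and Ppargc1b, a coactivator of mitochondrial biogenesis in osteoclasts, had 73.9, 84.2 and 67.0 CPM, against 3.28, 11.8 and 9.83 CPM. All 4 were higher in each library. Csf1r, the receptor for CSF1, was within 2-fold, at 487, 485 and 451 CPM against 289, 349 and 381 CPM. Tnfsf11, which encodes RANK ligand, had 0 UMIs in osteoclast-like cells of all 3 libraries.

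Of 8 genes compared that restrain osteoclast formation, 4, 5 and 5 were at least 2-fold lower at peak, plateau and resolution and 0 higher. Irf8, a repressor of Nfatc1, had 4.90, 4.19 and 6.09 CPM in osteoclast-like cells, against 53.8, 57.5 and 42.6 CPM. Cebpb, a macrophage factor, had 122, 136 and 64.0 CPM, against 3086, 2716 and 1619 CPM. Prdm1, a repressor of such restraining genes, was higher, with 156, 167 and 158 CPM against 33.5, 46.0 and 5.64 CPM. Costimulatory genes with or linked to ITAM motifs, which RANK signalling needs, held 0 higher and 4, 5 and 2 lower members among 10 compared, with median log2 ratios of -0.60, -0.79 and -0.19. Tyrobp, the adaptor DAP12, was within 2-fold, with 2604, 2600.5 and 2181 CPM against 4092, 2650.3 and 1889 CPM.

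Promoter sequence was looked at because these genes were higher together. RefSeq start sites (GRCm38.p6, the mm10 assembly) were matched for 17 of the 28 rule and further osteoclast genes, and the 250 bases before each start were searched on both strands. The NFAT core GGAAA was found for 12 of the 17 genes, against 58.8% of all 27025 genes with a window. The AP-1 motif TGANTCA was found for 2, against 7.82%, and the E-box TCACGTG bound by MITF and TFE factors for 1, against 3.58%. The motifs do not overlap in the windows shown. The list is too short to set these shares apart from those of all genes, and a match is a description, not a bound site. The windows of Oscar, Rufy4 (a lysosome-trafficking gene of osteoclasts) and Clcn7 are shown 5′ to 3′ because they hold the 3 motifs, which are in capitals. Oscar lies at chr7:3616158-3616407 on the - strand, Rufy4 at chr1:74125291-74125540 on the + strand and Clcn7 at chr17:25133141-25133390 on the + strand.
Oscar: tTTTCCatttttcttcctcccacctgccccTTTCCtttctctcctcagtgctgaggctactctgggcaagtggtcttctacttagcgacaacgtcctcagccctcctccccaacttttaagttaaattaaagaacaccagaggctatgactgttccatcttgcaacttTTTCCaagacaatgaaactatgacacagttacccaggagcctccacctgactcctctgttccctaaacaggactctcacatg
Rufy4: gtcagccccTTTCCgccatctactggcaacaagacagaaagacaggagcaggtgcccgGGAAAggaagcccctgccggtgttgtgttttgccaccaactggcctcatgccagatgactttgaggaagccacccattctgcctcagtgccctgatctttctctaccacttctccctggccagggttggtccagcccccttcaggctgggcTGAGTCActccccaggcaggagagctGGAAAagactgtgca
Clcn7: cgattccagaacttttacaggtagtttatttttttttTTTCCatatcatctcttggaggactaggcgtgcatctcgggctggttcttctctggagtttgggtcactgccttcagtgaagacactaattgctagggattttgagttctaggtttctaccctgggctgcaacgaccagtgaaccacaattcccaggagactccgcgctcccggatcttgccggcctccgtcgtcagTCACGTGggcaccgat
The Oscar window has GGAAA at 249, 220 and 82 bases before the start, the Rufy4 window has the AP-1 motif at 41, and the Clcn7 window has the E-box at 16. In osteoclast-like cells Oscar, Rufy4 and Clcn7 had 169, 82.6 and 69.6 CPM at peak, against 0.899, 1.97 and 10.7 CPM in the others.

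Adhesion and actin genes held 8, 7 and 7 higher and 3 lower members among 19 compared. Itgb3, integrin beta 3, which with the alpha v chain anchors osteoclasts to bone, had 107, 131 and 27.4 CPM in osteoclast-like cells, against 2.21, 8.95 and 3.85 CPM. Itgav, the alpha v chain, had 278, 339 and 249.8 CPM, against 56.9, 129 and 71.0 CPM. Src, the kinase required for the sealing ring, had 76.4, 88.4 and 82.3 CPM, against 4.66, 15.5 and 1.61 CPM. All 3 genes were higher in each library. Itgam, the CD11b chain on which the cells were sorted, was lower at 56.0, 67.5 and 137 CPM, against 342, 311 and 296 CPM, and Itgb5, another partner of the alpha v chain, was lower at 7.17, 11.8 and 9.14 CPM, against 68.8, 109 and 36.5 CPM.

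Mitochondrial energy genes were higher almost throughout, 17, 17 and 12 of 18 at peak, plateau and resolution, with median log2 ratios of 1.91, 1.64 and 1.27. Atp5b, the catalytic subunit of ATP synthase, had 1237, 1301 and 966 CPM in osteoclast-like cells, against 304, 402 and 294 CPM. Mdh2, the mitochondrial malate dehydrogenase, had 1309, 1474 and 734 CPM, against 238, 324 and 176 CPM. These values stand beside the higher mitochondrial UMI share given above, whose part in them was not tested. Ckb, the brain-type creatine kinase that buffers ATP, had 3923, 4322 and 737 CPM, against 102, 207 and 427 CPM. Its ratio was 38.4-fold at peak (37.3 to 39.6), 20.8-fold at plateau (20.2 to 21.5) and 1.73-fold at resolution (1.51 to 1.96). The 14 genes of glycolysis showed no such shift, with 2, 1 and 1 higher, 2, 3 and 2 lower, and median log2 ratios of 0.0070, -0.15 and 0.05. With TMM totals these medians were -0.25, -0.14 and -0.08.

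Of 8 iron genes, 3 were at least 2-fold higher in each library and 3, 3 and 2 lower. Tfrc, the transferrin receptor, had 184, 195 and 171 CPM in osteoclast-like cells, against 10.5, 28.3 and 16.8 CPM, and Slc11a2, the importer DMT1, had 35.8, 37.7 and 18.3 CPM, against 7.45, 15.3 and 9.75 CPM. Fth1, the ferritin heavy chain, was lower at peak and plateau, with 6257 and 7625 CPM against 18209.6 and 16638 CPM, and within 2-fold at resolution, with 7984 CPM against 9507 CPM. Slc11a1, an iron exporter of macrophage phagosomes, was lower at 8.49, 5.66 and 9.14 CPM, against 95.1, 96.8 and 58.4 CPM. Mt3, a metal-binding metallothionein, had the highest mean ratio at peak and plateau of the genes that the naming rule allowed. It had 293, 243 and 899 CPM, against 3.45, 11.1 and 5.27 CPM. It was uneven among the cells: 48.2%, 51.5% and 85% of them had a UMI of it, and the highest cell reached 32.8, 53.5 and 35 UMIs per 10000 gene UMIs.

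**Figure D3:**
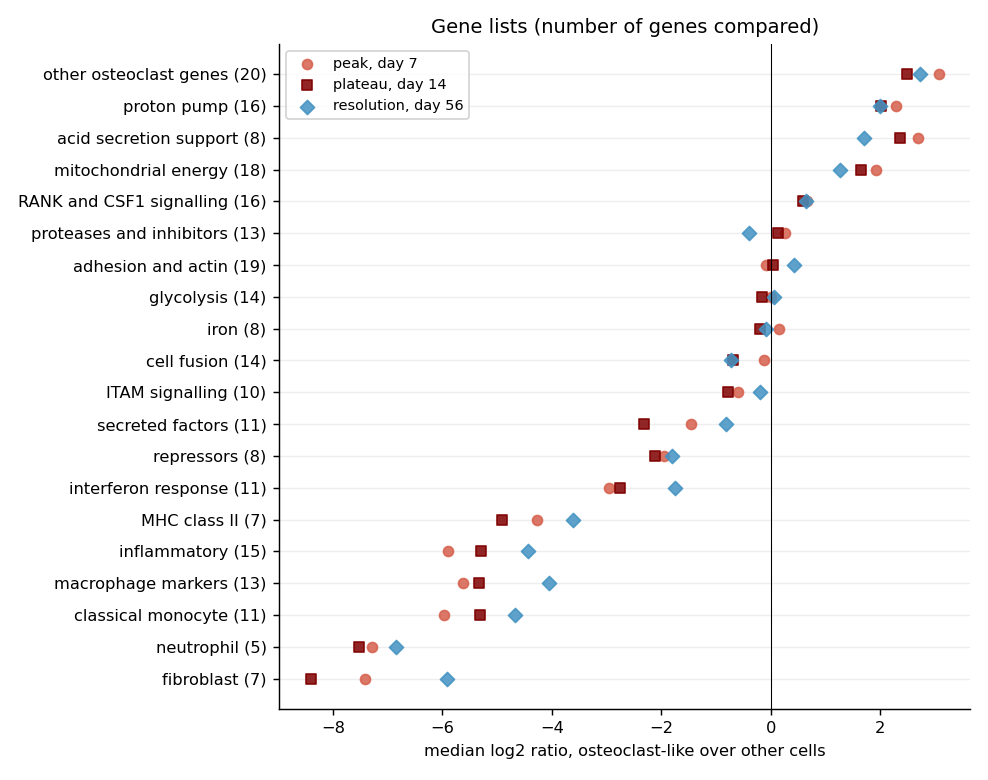
Median log2 ratio of RNA level in osteoclast-like cells over all other kept barcodes for 20 gene lists, with 1 point for each library. The number of genes compared is in parentheses. Osteoclast, proton pump, acid secretion and mitochondrial lists lie right of 0 in all 3 libraries, and inflammatory, macrophage, classical monocyte, neutrophil and fibroblast lists lie left of -4.

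Of the genes compared, which leave out the rule genes and those under 20 CPM, the 15 with the highest mean ratio at peak and plateau were Mt3, Mst1r, Proser2, Mmp9, Rab38, Slc9b2, Car2, Ckb, Itgb3, St8sia6, Rufy4, Myo1d, Serpind1, Spns2 and Coq8a. Mst1r encodes RON, the receptor for macrophage-stimulating protein, and had 65.6, 79.0 and 3.05 CPM in osteoclast-like cells, against 0.880, 3.21 and 0.224 CPM. Spns2, an exporter of sphingosine 1-phosphate, had 42.6, 50.8 and 9.14 CPM, against 1.18, 3.41 and 3.18 CPM. Coq8a, a mitochondrial protein of coenzyme Q synthesis, had 174, 221 and 140.1 CPM, against 5.41, 14.7 and 4.60 CPM. St8sia6, a sialyltransferase, had 55.8, 75.3 and 64.0 CPM, against 1.27, 4.86 and 5.72 CPM. At resolution the Mst1r value rests on 1 UMI, so its level there is not resolved at this depth. Of all 5253 genes compared, 430 were at least 2-fold higher in osteoclast-like cells in all 3 libraries and 659 lower.

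Factors by which osteoclasts are known to signal to bone-forming cells were more often lower than higher. Of 11 compared, 3, 2 and 3 were at least 2-fold higher and 7, 7 and 5 lower at peak, plateau and resolution. Over all genes compared, 17.5%, 11.9% and 13.9% were higher and 18%, 17.4% and 18.5% lower. The median log2 ratios of these factors were -1.45, -2.31 and -0.82. Sema4d, a semaphorin that restrains osteoblasts, had 126, 176 and 79.2 CPM in osteoclast-like cells, against 62.6, 72.9 and 35.8 CPM. Pdgfb, a growth factor for mesenchymal and vessel-wall cells, had 91.5, 103 and 128 CPM, against 8.93, 30.6 and 53.4 CPM. Both were higher in each library. Spp1, osteopontin, had 790.4, 911 and 490.5 CPM, against 2165, 4526 and 402 CPM, and so was lower at peak and plateau. Tgfb1 had 22.4, 21.2 and 54.8 CPM, against 277, 254 and 263 CPM, and Igf1 had 0.377, 0.488 and 0 CPM, against 44.1, 83.7 and 74.3 CPM. Bmp6, Slit3 and Tnfsf11 had 0 UMIs in all 3 libraries.

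Inflammatory genes were low. All 15 compared were at least 2-fold lower at peak and at plateau, and 14 at resolution, where Il1rn was the exception with 6.09 CPM against 6.72 CPM. Il1b had 68.1, 56.2 and 21.3 CPM in osteoclast-like cells, against 3142, 2594 and 588 CPM in the others. Cxcl2, a neutrophil attractant, had 57.1, 60.0 and 33.5 CPM, against 2687, 3122 and 1556 CPM. Tnf had 3.21, 3.32 and 9.14 CPM, against 56.9, 61.8 and 126 CPM. Interferon response genes were lower for 9, 8 and 8 of 11. MHC class II genes, whose protein was a negative gate of the sort, were lower for all 7 compared in each library. Cd74 had 227, 104 and 789 CPM, against 4119, 3381 and 9648 CPM. The antibody I-A-I-E, which reads MHC class II protein, still averaged 26.3, 21.2 and 39.3 UMIs, against 42.3, 36.7 and 46.1 in the others. Its medians were 8, 5 and 9 UMIs, against 11, 5 and 5. As a share of antibody UMIs its log2 ratios were -0.55, -1.44 and -0.18.

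Markers of other cell types were low in osteoclast-like cells. Of 13 macrophage markers compared, 11, 12 and 11 were at least 2-fold lower at peak, plateau and resolution. The summed level of the 20 listed was 1202, 1048 and 2410 CPM, against 5824, 7274 and 10732 CPM. Csf1r and Apoe made up most of it, with Fxyd2 at resolution. At peak Fxyd2 was the 1 member that was higher, with 172 CPM against 41.5 CPM. C1qa, a complement component of macrophages, had 2.07, 10.2 and 3.05 CPM, against 151, 512 and 1144 CPM, and Lyz2, lysozyme, had 185, 192 and 405 CPM, against 11542, 9651 and 6545 CPM. Of 11 classical monocyte genes, 10 were at least 2-fold lower in each library, as were all 3 nonclassical monocyte genes compared. The 12 neutrophil genes summed to 16.4, 14.2 and 6.09 CPM, against 1269.7, 499.9 and 1730.3 CPM. The 10 fibroblast genes summed to 24.9, 28.6 and 42.6 CPM, against 3397, 8228 and 2473 CPM, and the 11 of osteoblasts and chondrocytes to 3.96, 4.19 and 6.09 CPM, with 8, 8 and 9 of them at 0 UMIs. The 8 genes of endothelial and red blood cells summed to 0.754, 2.24 and 0 CPM, with 5, 4 and 8 at 0. Basophil and mast cell genes summed to 1.89, 1.37 and 0 CPM, with 7, 7 and 10 of 10 at 0, B cell genes to 1.89, 1.76 and 0 CPM, with 4, 4 and 7 of 7 at 0, and dendritic cell genes to 3.02, 3.51 and 6.09 CPM, with 4, 2 and 7 of 9 at 0. Of 12 genes of T and natural killer cells, 9, 9 and 10 were at 0, and Lat, an adaptor of T cell receptor signalling, had 42.6, 56.3 and 6.09 CPM, against 2.49, 2.84 and 1.05 CPM. Of the genes that the naming rule allowed, the 15 with the lowest ratios were the matrix and fibroblast genes Aspn, Fbln2, Has1, Sfrp1, Mmp3, Sparc, Dcn, Col1a2, Abi3bp and Serpinf1, with Ptx3, Nedd4, S100a16, the monocyte gene Ly6c1 and the neutrophil gene Camp. Aspn had 0 UMIs in osteoclast-like cells of all 3 libraries, against 45.7, 52.8 and 81.5 CPM in the others.

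Surface CD61 stood out in the antibody counts, which the rule did not use. CD61 antibody UMIs per osteoclast-like cell ran from 0 over a median of 197.5 to 2479 at peak, from 0 over 351 to 3787 at plateau and from 0 over 1.5 to 152 at resolution, against medians of 6, 4 and 1 in the other barcodes. At least 50 CD61 UMIs were found in 74.4% of osteoclast-like cells at peak (interval 67.1 to 80.8), 74.1% at plateau (interval 69.1 to 78.7) and 25% at resolution (interval 8.66 to 49.1). Among barcodes that met neither criterion this share was 0.619% at peak, 0.533% at plateau and 0.266% at resolution, and 6.66% at baseline. Barcodes that met the UMI criterion alone lay in between, with 13.3% of 105 at peak and 21.8% of 133 at plateau. Within osteoclast-like cells, CD61 antibody UMIs ranked with Itgb3 RNA per gene UMI, with a Spearman rho of 0.60 over 168 cells at peak and 0.59 over 340 at plateau. Cells of 1 library share its staining and sequencing, so these values describe the libraries only.

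CD71, the transferrin receptor, was the second antibody. Its median was 37, 29 and 15.5 UMIs in osteoclast-like cells at peak, plateau and resolution, against 2, 1 and 0 in the others. The highest cells had 940, 1879 and 170 UMIs. As a share of all antibody UMIs, CD71 was higher by 4.60, 3.20 and 4.92 on the log2 scale, and CD61 by 5.32, 4.78 and 3.12. CD71 UMIs ranked only weakly with Tfrc RNA per gene UMI (rho 0.17 and 0.13 at peak and plateau).

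CD115 and CD68 had high means that rested on few cells. CD115 averaged 40.5, 35.1 and 2.10 UMIs per osteoclast-like cell at peak, plateau and resolution, against 3.99, 6.98 and 3.6, but the medians were 2, 3 and 1 against 1, 1 and 1. The 99th percentile of other barcodes was exceeded by 33 of 168 cells at peak, 36 of 340 at plateau and 0 of 20 at resolution. CD68 averaged 17.0, 9.84 and 4.60 UMIs, against 2.36, 1.26 and 1.72, with medians of 2, 2 and 1 against 1, 0 and 0. Cd68 RNA was higher in each library, with 1135, 1152 and 905 CPM against 384, 357 and 241 CPM.

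Most antibodies took a smaller share of the antibody UMIs in osteoclast-like cells, in which CD61 alone took 35%, 45% and 5.65% at peak, plateau and resolution. Of 48 antibodies with a mean of at least 1 UMI, 31, 32 and 16 were at least 2-fold lower as a share and 7, 4 and 4 higher, with median log2 ratios of -1.12, -1.65 and -0.47. As means per barcode 32, 24 and 16 were lower and 6, 4 and 4 higher, with medians of -1.26, -1.01 and -0.55. In all 3 libraries 12 were lower and 3 higher as a share, namely CD61, CD71 and CD68, and 9 and 3 without the highest other barcode of each antibody. CD11a, the integrin chain of lymphocytes and monocytes, averaged 10.8, 4.69 and 2.50 UMIs in osteoclast-like cells, against 132, 47.6 and 21.5 in the others. Its RNA, Itgal, had 1.70, 0.683 and 0 CPM, against 55.7, 34.9 and 74.0 CPM. The C5a receptor CD88 averaged 3.64, 2.22 and 2.90 UMIs, against 20, 11.6 and 10.6, and CD102 averaged 2.54, 2.13 and 1.90, against 18.5, 9.92 and 4.94. CD90.2, CD62L and CD14 were also at least 2-fold lower at peak and plateau, with or without the single other barcode that held most UMIs of the antibody. For CD55 and FceRIa that barcode counted for much: 1 other barcode held 80.4% of the others' CD55 UMIs at peak, and the log2 ratio was -2.77 with it and -0.42 without it. For FceRIa at plateau 1 barcode held 95.1%, and the ratio was -5.41 with it and -1.07 without it. CD14 averaged 8.66, 8.47 and 1.55 UMIs, against 38.8, 45.5 and 2.37. As shares, CD54 and CD172a stood at 1.02 and 0.81 on the log2 scale at peak and at 0.08 and 0.13 at plateau, where means per barcode gave 0.73 and 0.78. FrB stood at 1.45 at peak, -0.73 at plateau and -1.45 at resolution, and at -0.08 per barcode at plateau. CD11b, on which the cells were sorted, had medians of 131.5, 195.5 and 144.5 UMIs, against 250, 198 and 108. The panel held 0 isotype control antibodies, and 5 antibodies had at most 3 counts.

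**Figure D4:**
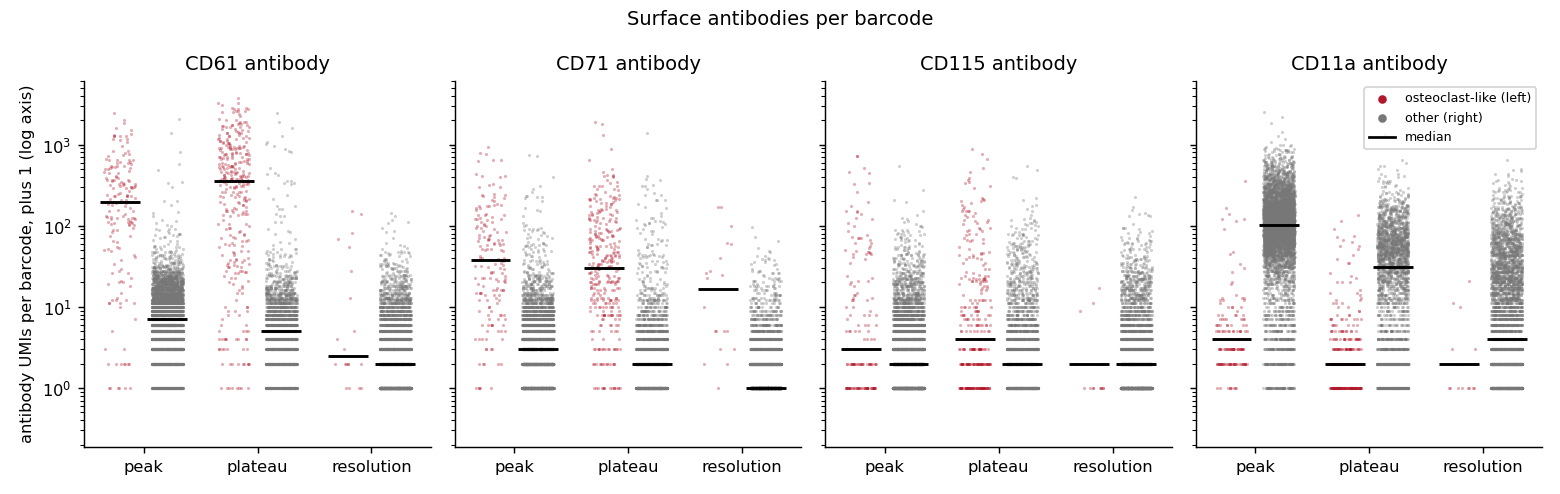
Antibody UMIs per barcode, plus 1, on a log axis for CD61, CD71, CD115 and CD11a at peak, plateau and resolution. Red points are osteoclast-like cells, grey points all other kept barcodes, and black lines medians. CD61 medians were 197.5 at peak and 351 at plateau in osteoclast-like cells, against 6 and 4 in the others, and CD11a lay the other way.

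Donor and host origin was read from both CD45 antibodies in cells with at least 5 UMIs of the pair, calling a cell host when at least 80% of these were CD45.2. By this reading 34 of 164 osteoclast-like cells at peak were of the host (20.7%, interval 14.8 to 27.7), 38 of 327 at plateau (11.6%, 8.36 to 15.6) and 3 of 16 at resolution (18.8%, 4.05 to 45.6). In the other barcodes the host share was 2.56% at peak, 5.92% at plateau and 17.6% at resolution. Donor cells made up 77.4%, 85.6% and 68.8% of osteoclast-like cells, against 94.8%, 90.9% and 71.5% of the others. Both antibodies reached at least 10 UMIs in 5, 9 and 0 osteoclast-like cells.

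Among the cells themselves, the Acp5 and Ctsk share, which the rule used, was higher in deeper cells, while other resorption genes showed no common order with depth. At peak, the Acp5 and Ctsk share had a median of 3.17%, 3.94% and 4.49% in the 56 shallowest, 56 middle and 56 deepest cells, and at plateau 3.29%, 4.52% and 4.70% in the 114, 113 and 113. Mmp9 had 4896, 4614 and 6162 CPM in the same order at peak and 6324, 7591 and 7341 CPM at plateau, and Atp6v0d2 had 1237, 1138 and 1208 CPM at peak and 1278, 1340.4 and 1344 CPM at plateau. Ckb had 3273, 3270.1 and 4529.7 CPM at peak and 2497, 3791 and 5189.7 CPM at plateau. Nfatc1 ran the other way with 465, 419.8 and 341 CPM at peak and 560.1, 439.5 and 381 CPM at plateau. Itgb3 did so too, with 150.3, 104 and 95 CPM at peak and 181, 138 and 111 CPM at plateau, whereas median CD61 antibody UMIs were 146, 140 and 306 at peak and 228.5, 373 and 386 at plateau. The fusion-gene UMIs per 10000 gene UMIs were close to level at 16.7, 16.6 and 18.8 at peak and 21.7, 22.4 and 22.6 at plateau. Counts of a cell share its depth, which the rule also touches, so these are descriptions. Ctsk ranked with Acp5 over cells at a Spearman rho of 0.72 at peak and 0.77 at plateau, both rule genes, and with Ckb at 0.44 and 0.52.

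Between plateau and peak the osteoclast-like cells themselves differed little. Of 4836 genes with a mean of at least 20 CPM in them, 6 were at least 2-fold higher at plateau (0.124%) and 25 at least 2-fold lower (0.517%), and the median log2 ratio of all was 0.07. None of the 6 rule genes was among them, and 0 of 20 further osteoclast genes, 0 of 16 pump genes and 0 of 18 mitochondrial genes were. The same limits on the rule genes admitted the cells of both libraries. Likeness in those genes, and in genes of the same programme, is therefore partly built in. The highest were Bcl2a1b, an anti-apoptotic BCL2 relative with near-identical copies, with 188 CPM at plateau against 85.4 CPM at peak (2.20-fold, 95% interval 1.99 to 2.45), Fn1, fibronectin, with 63.9 against 30.2 CPM (2.12-fold, 1.78 to 2.53), and Erh, a splicing-related factor, with 147 against 72.2 CPM (2.03-fold, 1.81 to 2.28). In the other barcodes these 3 genes were also higher at plateau, by 1.34, 1.33 and 1.28 on the log2 scale. The other 9 named genes, from Basp1, Zfp263, Gga2, Abcg1 and Rnf149 to Dcstamp, Ei24, Cirbp and Rgs2, were higher by 0.71 to 0.83 on that scale. Dcstamp had 422 CPM at plateau against 252 CPM at peak.

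At least 2-fold lower at plateau were 3 of 5 MHC class II genes, 3 of 7 cell cycle genes and 1 of 5 interferon response genes with enough RNA in osteoclast-like cells. Ifi27l2a, an interferon-induced gene, had 81.1 CPM in osteoclast-like cells at plateau against 400.3 CPM at peak, a 4.94-fold difference (4.56 to 5.36), and Isg15, the interferon-induced ubiquitin-like protein, had 78.2 against 201 CPM. In the other barcodes they were lower too, by -1.67 and -2.06 on the log2 scale. Of the MHC class II genes, H2-Aa had 19.0 against 55.6 CPM, and Cd74 104 against 227 CPM, where the others differed by -0.41 and -0.28. S100a6, a calcium-binding protein, had 819 against 2173 CPM. Ube2c, a gene of mitotic exit, had 19.1 against 63.4 CPM in osteoclast-like cells but was higher at plateau in the others by 1.78. Fxyd2, a subunit of the sodium pump that marks synovial macrophages, had 55.4 against 172 CPM and was higher in the others by 1.74. Mustn1, a small nuclear protein of the musculoskeletal system, had 25.2 against 75.2 CPM and was higher in the others by 0.96. Csnk2a2, Brd1, Mbd2 and Hnrnpa0 were lower by -2.30, -1.58, -1.41 and -1.27, and in the other barcodes by -1.64, -1.36, -1.66 and -1.11. No difference between the cell groups was tested.

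**Figure D5:**
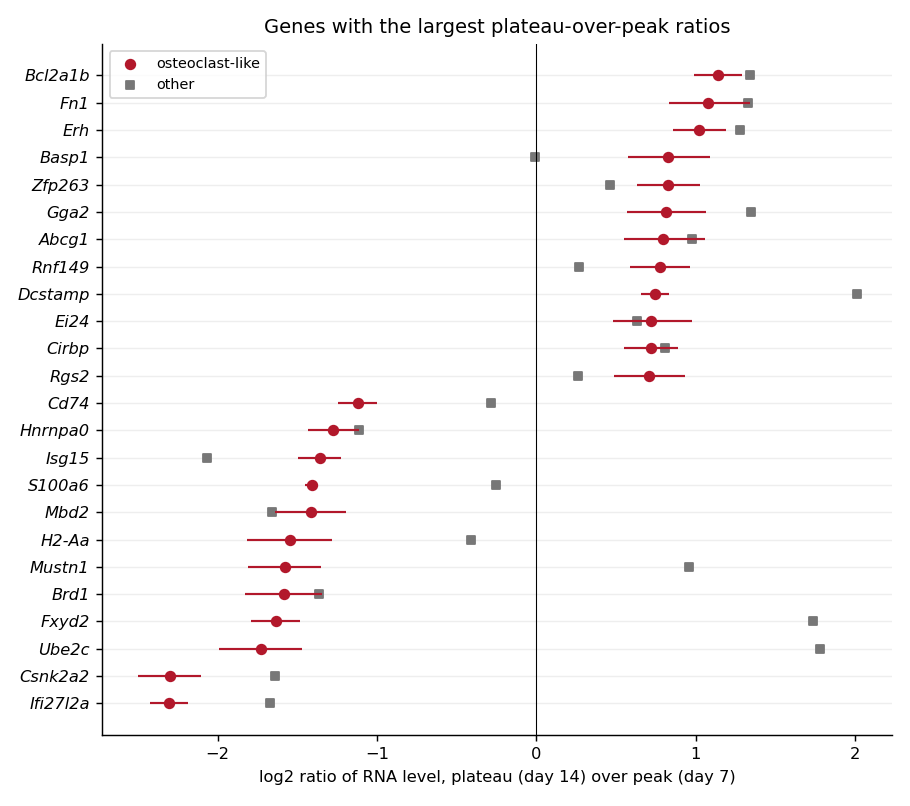
Log2 ratio of RNA level at plateau (day 14) over peak (day 7) for the 12 highest and 12 lowest genes in osteoclast-like cells. Red circles are osteoclast-like cells with 95% Poisson intervals, and grey squares are all other kept barcodes. Fxyd2, Ube2c and Mustn1 lie left of 0 in osteoclast-like cells and right of 0 in the others, whereas Csnk2a2, Brd1, Mbd2 and Hnrnpa0 lie left of 0 in both.

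The 20 osteoclast-like cells at resolution had lower levels of many osteoclast genes than those at plateau. They were chosen by the same limits, so that they carry the rule genes is no result. Shares of 2% to 2.5%, just inside the limit, were found in 9 of the 20, against 37 of 340 at plateau. The part of this in the lower levels was not tested. Against plateau, 211 of 4836 genes were at least 2-fold higher (4.36%) and 366 lower (7.57%), with a median log2 ratio of -0.01. The cells held 328262 gene UMIs in all, so many of these ratios rest on few UMIs. Of 20 further osteoclast genes, 10 were at least 2-fold lower and 1 higher, with a median log2 ratio of -0.95. Ckb had 737 CPM at resolution against 4322 CPM at plateau (5.86-fold lower, 5.17 to 6.68), Itgb3 27.4 against 131 CPM (4.76-fold lower, 2.50 to 10.4) and Dcstamp 122 against 422 CPM (3.46-fold lower, 2.54 to 4.85). Oscar had 9.14 against 232 CPM, a ratio of 25.4 on 3 UMIs (8.67 to 123). Jdp2 was within 2-fold with 1487 against 1235 CPM, and Mt3 was 3.70-fold higher with 899 against 243 CPM (3.27 to 4.18). Rtp4, Ifitm3, Serpind1, Mst1r and Bcl2a1b, the other named lower genes, had 1, 8, 2, 1 and 6 UMIs.

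Genes higher at resolution than at plateau were Hist1h2ap, Fxyd2, Igfbp4, Anxa8, Hist1h2ae and Tk1 by the naming rule. Fxyd2 had 938 CPM in osteoclast-like cells at resolution against 55.4 CPM at plateau, and 2634 against 138 CPM in the other barcodes. Cd74 had 789 against 104 CPM, and 9648 against 3381 CPM in the others. Anxa8, an annexin, had 198 against 13.5 CPM, and 258 against 25 CPM in the others. These 3 genes were higher at resolution in the other barcodes as well, and the part of free RNA or mixed droplets in this was not tested. Of the lists, 4 of 5 MHC class II genes and 6 of 7 cell cycle genes were at least 2-fold higher at resolution than at plateau. Igfbp4, an IGF-binding protein, had 76.2 against 4.78 CPM on 25 UMIs, and 71.3 against 391 CPM in the others. The histone genes Hist1h2ap and Hist1h2ae and the nucleotide kinase gene Tk1, all active in S phase, rest on 19, 19 and 18 UMIs. Histone genes of this cluster are near-identical, so reads between them may be split.

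Cycling RNA was present in a minority of the cells. Thinned to 3000 gene UMIs, 15 of 165 osteoclast-like cells at peak (9.09%, 5.18 to 14.6), 19 of 323 at plateau (5.88%, 3.58 to 9.03) and 3 of 20 at resolution (15%, 3.21 to 37.9) had at least 2 UMIs of 8 proliferation genes, against 1.5%, 4.09% and 3.65% of the others. Thinning left out 3, 17 and 0 osteoclast-like cells and 692, 557 and 1110 others. Without thinning the shares were 20.8%, 20.9% and 15%, against 2.79%, 5.87% and 4.66%. The summed level of these genes was 228, 98.9 and 429.5 CPM, against 90.2, 253 and 139 CPM. At plateau the share and the summed level go in opposite directions, so no order is read there.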

How the data were processed

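RNA and antibody counts came from 4 libraries, 1 a stage, of 10x Genomics 3′ CITE-seq. The authors deposited matrices of unnormalized UMI counts, per the file headers. Cell Ranger 6.1.2, Seurat 4.4.0 and the mm10 build are listed, without their steps, per the submitters' processing notes. Deposited barcodes numbered 1128 at baseline, 6490 at peak, 3104 at plateau and 4779 at resolution, with 12015315, 59816482, 30781729 and 27250421 gene UMIs. The members and gene lists were chosen with earlier results of these data known. UMIs were summed over the osteoclast-like cells and over all other kept barcodes of a library and scaled to CPM (per 1000000 gene UMIs), and log2 ratios were taken after adding 0.5 counts to each sum. Genes with a mean of at least 20 CPM over both groups at peak and plateau were compared, leaving out the 6 rule genes, and called at 2-fold. Antibody ratios used shares of all antibody UMIs. No test was run, since each stage had 1 library. Shares have exact binomial and ratios exact Poisson intervals at 95%, counting error only. Doublets were not removed, and removal by score with Scrublet in scanpy 1.11.5 served as an alternative. Besides genes of the osteoclast lists, the 15 highest and 15 lowest genes by mean ratio at peak and plateau with 1 sign in all 3 libraries were named, 12 and 12 for plateau against peak, 6 and 6 for resolution against plateau, and the 8 highest and 8 lowest antibodies. Of other lists the leading genes were named, and some further members were chosen after their values were seen. The ratio computation was tested on simulated data. Python 3.11.15, numpy 2.4.6, scipy 1.17.1, pandas 2.3.3, matplotlib 3.10.9, R 4.3.3 and edgeR 4.0.16 (TMM totals) were used. The values of 1 gene are not reported here.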

Additional observations from a re-analysis of the deposited data

Results flagged for a closer look

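Some ratios of osteoclast-like cells over other barcodes changed sign between libraries. None of these differences between stages was tested, since each stage had 1 library, and no test between stages can be made. The CD115 antibody was higher by 3.48 (log2) at peak and 1.69 at plateau and lower by -0.71 at resolution. The CD45.2 antibody stood at 3.05 at peak, -0.88 at plateau and 0.94 at resolution. At plateau 1 other barcode held 74.6% of the others' CD45.2 UMIs, and without it the ratio was 1.07, so that sign change rests on 1 barcode. The folate receptor antibody FrB stood at 1.45, -0.73 and -1.45, and as means per barcode at -0.08 at plateau. For these antibodies the median of osteoclast-like cells was at most 3 UMIs in each library.

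Among the genes named for a stage ratio, Ube2c stood at 1.76 at peak, -1.75 at plateau and 0.99 at resolution, and Tk1 at 1.33, -1.87 and 2.66. Fxyd2 stood at 2.05, -1.32 and -1.49. Anxa8 was at 0.80 at peak and -0.89 at plateau, and Hist1h2ap at -1.03 at plateau and 0.81 at resolution. The resolution values rest on 16 UMIs of Ube2c, 18 of Tk1, 308 of Fxyd2 and 19 of Hist1h2ap.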

How the results depend on the processing

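No paired analysis was possible because each stage had 1 library and no result came from a test. Of the values recomputed under other settings, 79 moved by less than their counting interval or by less than 1.5 times for counts, and 31 moved further. With Acp5 and Ctsk at 1% or more the share of osteoclast-like cells was 3.67% at peak, 14.4% at plateau and 0.716% at resolution, and at 4% or more 1.30%, 6.61% and 0.130%. With at least 1000 genes a barcode it was 13.5% at plateau. At a minimum of 50 CPM 494, 367 and 393 genes were at least 2-fold higher and 486, 457 and 461 lower at peak, plateau and resolution, and with no minimum 7864, 2538 and 10147 higher and 4109, 5481 and 2741 lower. With no minimum, higher genes were 65.7%, 31.7% and 78.7% of those called, against 49.3%, 40.6% and 42.8% at 20 CPM. Osteoclast-like cells held 5303415, 10250432 and 328262 gene UMIs, against 53401734, 19337632 and 26767889 in the others. The 0.5 counts added to each sum weigh more in the smaller group, which shifts genes with few or no counts towards higher. The counts with no minimum are therefore not read as differences in expression, and the size of this part was not tested. Plateau against peak, 10 genes were higher with the mean CPM of each barcode, 12 at 4% or more, and with no minimum 1043 were higher and 1267 lower. Per barcode, CD61 was higher by 5.19 (log2) at peak and 5.43 at plateau, and CD71 by 4.46 and 3.84. Without the other barcode that held most UMIs of the antibody, CD61 was higher by 5.38 and 4.89 and CD71 by 4.64 and 3.34. The last setting was chosen after seeing the data, as were those that limited other barcodes to those with Csf1r or left out shallow cells or cells with both CD45 antibodies, which moved none of the counts by 1.5 times. Depth limits resolution most, with 20 cells.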
